A study of Mus musculus with 23 samples.

Results

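The 7 genes described here belong to inhibitory signalling by γ-aminobutyric acid (GABA) and were measured in the hippocampus of mouse pups made anemic by blood draws. They are Gad1, Gad2, Slc32a1, Slc6a11, Abat, Slc12a2 and Slc12a5, chosen by name for their roles in GABA synthesis, transport, breakdown and chloride balance. All 7 are rows of the gene table of 24421 genes, and all 7 passed the filter on low counts that left 15475 genes for testing. Polyadenylated RNA was sequenced from the hippocampus on postnatal day 14 in 23 libraries. Non-bled controls (NBC) received a needle prick only. Moderate phlebotomy-induced anemia (mPIA) had a goal haematocrit, the volume share of red cells in blood, of 25%, and severe anemia (sPIA) a goal of 18%. Draws of 5.25 µl per g began on postnatal day 3 and were made 2 times daily, and once the goal was reached a daily draw of 3.5 µl per g followed. Each level was studied in both sexes, with 4 libraries per group and 3 for NBC males. All groups shared the age and the tissue; the labels name no strain or genotype.

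GABA is the main inhibitory transmitter of the brain. It is made from glutamate by the glutamate decarboxylases, packed into synaptic vesicles, cleared by membrane transporters and broken down by a transaminase. Its effect depends on the chloride gradient of the receiving cell. The importer NKCC1, encoded by Slc12a2, raises chloride inside neurons, and the neuronal exporter KCC2, encoded by Slc12a5, lowers it. In the rodent hippocampus the rise of KCC2 after birth accompanies the change of GABA from depolarizing to hyperpolarizing, a change largely complete by the age studied here.

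Among these 7 genes, Slc32a1 and Slc12a5 were lower in severe anemia. In females Slc32a1 fell by 0.46 and Slc12a5 by 0.24 on the log2 scale against NBC, by 0.45 and 0.24 against mPIA, and in males by 0.30 and 0.24 against mPIA. Neither passed the test in sPIA males against NBC males. With each library's trend on GC content and gene length removed, Slc32a1 was lower by less in sPIA against NBC females (-0.22, edgeR adjusted p = 0.0438), Slc12a5 did not pass (-0.12, adjusted p = 0.128), and both male calls were lost. A gene is called here when its adjusted p in edgeR's quasi-likelihood test, fitted over all genes, is under 0.05. The synthesizing enzymes Gad1 and Gad2, the astrocyte transporter Slc6a11 and the transaminase Abat passed the test in 0 of the 9 comparisons made. 

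The members' calls stand beside the share of all genes called. In mPIA against NBC females 0.00646% of the 15475 genes were called and 0 of the 7 members, and in mPIA against NBC males 0.653% and 0 members (0 and 2 members had an unadjusted p under 0.05). In sPIA against NBC the figures were 16% of genes and 2 of 7 members in females and 0.194% and 0 members in males (1 with an unadjusted p under 0.05). For sPIA against mPIA they were 16.1% and 2 members in females and 4.92% and 2 members in males. The sex difference of the mPIA effect (the log2 change against NBC in females minus that in males) called 0% of genes and 0 members, although 1103 genes and 1 member had an unadjusted p under 0.05 in edgeR, and that of the sPIA effect called 0.95% and 0 members (3 with an unadjusted p under 0.05). DESeq2 and limma-voom also called 0 members in these comparisons with 0, except for Slc12a2 with DESeq2 in the sex difference of the sPIA effect. No test compares the members with other genes, and with 7 genes a count of 2 calls does not set them apart. In mPIA against NBC females 55 of all genes had an unadjusted p under 0.05 in edgeR, fewer than chance alone lets through. The spread is pooled over groups, and replicate pairs differed less in NBC and mPIA females (chi-square per degree of freedom 3.014 to 9.674) than in NBC males (19.13 to 30.34). The 0 calls in these females therefore do not show that the members were unchanged.

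The promoters of the 2 genes that fell together are shown because these genes moved together across the libraries, at levels that keep the trend on GC content and length. RefSeq start windows (build GRCm38.p6) were matched by symbol for 5 of the 7 members, all but Abat and Slc12a2. The runs shown lie on the plus strand of chromosome 2 and end before the first annotated exon base of that start: chr2:158610508-158610757 for Slc32a1, chr2:164960596-164960801 for the upstream start of Slc12a5 and chr2:164967738-164967982 for its downstream start, which lies inside the gene. Capitals mark matches, on either strand, to ACGTG or GCGTG (the cores of the hypoxia response element bound by HIF) and to CAGCACC or GGACAG (the half-sites of the element bound by the neuronal repressor REST).
Slc32a1: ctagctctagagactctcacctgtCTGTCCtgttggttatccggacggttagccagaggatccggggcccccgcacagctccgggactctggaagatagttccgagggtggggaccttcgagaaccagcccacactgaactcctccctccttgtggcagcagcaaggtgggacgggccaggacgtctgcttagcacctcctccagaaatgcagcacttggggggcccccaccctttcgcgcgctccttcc
Slc12a5 upstream start: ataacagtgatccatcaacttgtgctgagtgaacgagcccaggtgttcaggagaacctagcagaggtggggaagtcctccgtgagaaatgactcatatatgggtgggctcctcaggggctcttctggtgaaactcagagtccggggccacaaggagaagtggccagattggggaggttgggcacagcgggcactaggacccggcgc
Slc12a5 downstream start: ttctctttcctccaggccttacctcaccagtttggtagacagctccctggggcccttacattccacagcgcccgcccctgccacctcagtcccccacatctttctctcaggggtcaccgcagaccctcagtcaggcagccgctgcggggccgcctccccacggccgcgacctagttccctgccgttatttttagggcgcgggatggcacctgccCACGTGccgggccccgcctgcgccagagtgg
The downstream start of Slc12a5 held a palindrome that matches ACGTG on both strands, at 35 and 36 bases before the RefSeq start, so these matches overlap. Slc32a1 held a match to GGACAG on the minus strand, 226 bases before its start, and the upstream start of Slc12a5 held no match to the 4 motifs. Among the other members, Gad1 held 1 match to GCGTG, Gad2 held 2 to GCGTG and 2 to GGACAG, and Slc6a11 none. Over all 32851 RefSeq windows of 250 bases, ACGTG was found in 16.6%, GCGTG in 28.2%, CAGCACC in 5.73% and GGACAG in 18.7%. All 3 windows were rich in G and C, at 62.4% for Slc32a1 and 61.2% and 67.2% for Slc12a5, against a median of 52.4%. These matches describe letters only and say nothing of which factor binds.

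Library totals lay between 15234793 and 26355712 counts, apart from mPIA female 3 with 44362539, and the members had between 822 counts (the lowest library of Slc32a1) and 19888 counts (the highest of Slc12a5). Slc17a7, the vesicular glutamate transporter of hippocampal excitatory neurons, stood at 1316 to 1903 CPM (counts scaled to a common library size with TMM, edgeR's trimmed mean of log ratios) in all 23 libraries. Choroid plexus markers summed to over 1000 CPM in 4 libraries, NBC female 2, NBC males 3 and 4 and sPIA female 2. The labels' sample codes also follow the groups: NBC and mPIA females share code stems, while sPIA females, NBC males and sPIA males carry codes starting with P, and mPIA males with M. What the codes stand for is not stated, so code and group cannot be told apart in sPIA females against NBC or mPIA females, in mPIA males against NBC or sPIA males, or between NBC females and NBC males. NBC and mPIA females share all their stems, and NBC and sPIA males share the letter and 1 stem. The labels also carry S numbers, whose meaning is not stated either. All sPIA libraries of both sexes have lower S numbers than every NBC and mPIA library. S number and group therefore cannot be told apart in any comparison of sPIA with NBC or mPIA, sPIA against NBC males included. Those of NBC and mPIA females interleave. The comparisons share groups (NBC females, for example, stand in several), so their values are given side by side and are not independent of each other. In this bulk tissue, fewer cells of a type and less RNA per cell cannot be told apart.

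Per kilobase of exonic sequence, Slc12a5 was the most abundant member at 56.4 ± 5.2 CPM per kb (SD over 23 libraries). Gad1 followed with 43.9 ± 3.14, Abat with 43.2 ± 2.34, Slc6a11 with 41.6 ± 2.98 and Gad2 with 41.5 ± 3.29 CPM per kb. Slc32a1 stood at 20.7 ± 3.03 and Slc12a2 at 8.32 ± 1.67 CPM per kb. Exonic length is the union of all annotated exons (7639 bases for Gad1 and 5876 for Gad2), and which transcripts were expressed was not determined. The order of the genes and the size of their ratios depend on these lengths. The order had 3 steps that held in 23 of 23 libraries: Slc12a5 over Gad1, Gad2 over Slc32a1, and Slc32a1 over Slc12a2. The 4 genes between did not separate beyond their spread, since Gad1 exceeded Abat in 13 libraries, Abat exceeded Slc6a11 in 16 and Slc6a11 exceeded Gad2 in 14 of 23. Slc12a2 varied most, 2.2-fold between its lowest library (mPIA female 4) and its highest (NBC male 4), and Slc32a1 1.74-fold, while the other 5 genes ranged over 1.23-fold to 1.39-fold.

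**Figure D1:**
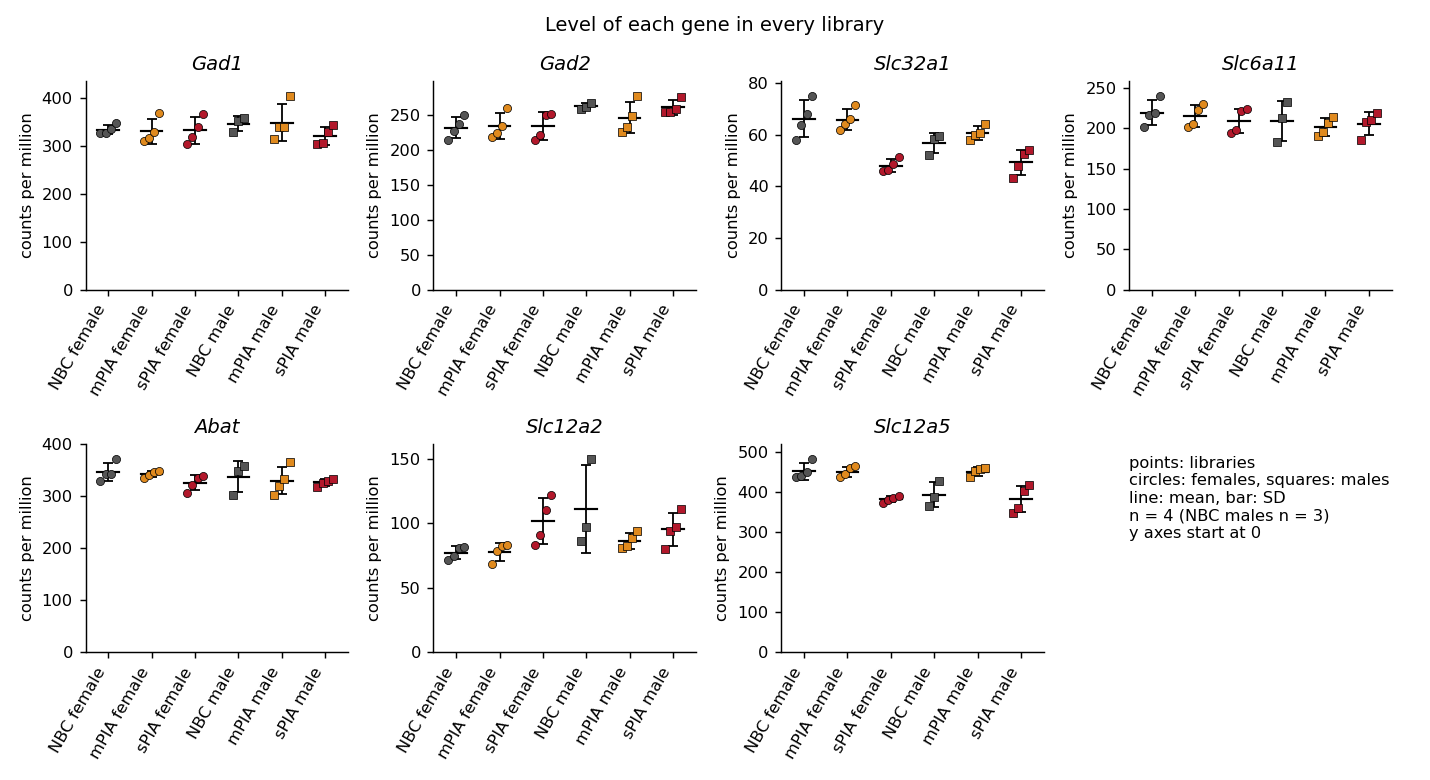
Level of each of the 7 genes in CPM (y axis, from 0) in every library of the 6 groups (x axis); points are libraries, lines are means and bars the SD (n = 4, NBC males n = 3). Slc32a1 and Slc12a5 sat lower in all sPIA females than in any NBC or mPIA female, and the highest Slc12a2 point, at 149.9 CPM, was NBC male 4.

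Gad1, the GABA-synthesizing enzyme found throughout the cell, lies at chr2:70553072-70602014 (mm10, plus strand). Its levels were 326, 347, 328 and 336 CPM in NBC females, 310.0, 329, 316 and 368 CPM in mPIA females and 319, 339.6, 368 and 303 CPM in sPIA females. In males they were 329.5, 351.5 and 359 CPM in NBC, 338.5, 403, 339 and 314 CPM in mPIA and 304, 306, 328 and 344 CPM in sPIA. The groups overlapped throughout. Its largest log2 change against NBC was -0.11 in sPIA males, with a 95% interval from -0.26 to 0.04.

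Gad2 encodes the decarboxylase enriched at axon terminals and lies at chr2:22622205-22693874 (plus strand). It stood at 214, 249.7, 237 and 226 CPM in NBC females, 224, 234, 219 and 259.9 CPM in mPIA females, and 214, 250.1, 251 and 221 CPM in sPIA females. NBC males had 259, 261 and 267 CPM, mPIA males 226, 276, 249 and 233 CPM and sPIA males 254, 276, 254 and 259 CPM. All 4 NBC females were below all 3 NBC males, a log2 difference of -0.18 that did not pass the test (edgeR, adjusted p = 0.122). In females, the log2 change of Gad2 in sPIA against NBC was 0.01, with a 95% interval from -0.12 to 0.15.

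The ratio of Gad1 to Gad2, both per kb, was taken within each library as a description with no test. Among females it averaged 1.11 ± 0.0536 for NBC, 1.09 ± 0.0184 for mPIA and 1.09 ± 0.0504 for sPIA (SD, n = 4 each). In males it averaged 1.01 ± 0.032 in NBC (n = 3), 1.09 ± 0.0571 in mPIA and 0.948 ± 0.0751 in sPIA. Group means lay between 0.948 and 1.11. Of the pairs of groups compared, those without overlap were sPIA males below mPIA males and NBC females above NBC males, and both pairs overlapped with the GC and length trend removed.

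Slc32a1 encodes VGAT, the transporter that loads GABA and glycine into vesicles, and lies at chr2:158610767-158615748 on the plus strand. It stood at 68, 74.8, 57.8 and 63.9 CPM in NBC females and at 64, 66.2, 61.7 and 71.3 CPM in mPIA females. The 4 sPIA females had 51.3, 46, 48.7 and 46.1 CPM, below every other female library. Against NBC females this was a log2 change of -0.46 ± 0.079 (SE, n = 4 and 4), a level lower by 27.3% (edgeR's quasi-likelihood test, Benjamini-Hochberg adjusted p = 0.000342). Against mPIA females the change was -0.45 ± 0.079 (adjusted p = 0.000314).

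In males, Slc32a1 stood at 58.4, 59.4 and 52.2 CPM in NBC, 60.8, 59.8, 57.8 and 64.2 CPM in mPIA and 47.9, 43.1, 53.9 and 52.4 CPM in sPIA. All 4 sPIA males were below all 4 mPIA males (log2 change -0.30 ± 0.079, edgeR adjusted p = 0.029). Fitted on these 8 libraries alone it was -0.29 and did not pass (adjusted p = 0.0753), and the call was also lost without mPIA male 1, 2 or 4 or sPIA male 1 or 2, with adjusted p from 0.0528 to 0.115. Against NBC males, sPIA male libraries overlapped the controls and the change of -0.20 did not pass (adjusted p = 0.329, interval -0.37 to -0.04). The difference between the sexes in the sPIA effect, -0.26 on the log2 scale, did not pass either (adjusted p = 0.262). Counts of Slc32a1 carry an uncertainty of their own: the antisense gene Gm14205 shares 697 of its exonic bases, 24.9%, and the strand setting was not given in the sources used here.

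Several markers of GABA neurons were lower in sPIA females, as Slc32a1 was. The summed CPM of the 32 markers ranged from 1801 to 1966 for NBC, 1833 to 1927 for mPIA and 1573 to 1800 for sPIA females. Of the 32, 3 rose, 11 fell and 18 did not pass in sPIA against NBC females, beside 16% of all genes called. The median log2 change was -0.24, beside 0.00 over all genes tested. With the GC and length trend removed, 1 rose and 10 fell, where 1300 of the 15475 genes were called. The neuropeptide somatostatin (Sst) had the smallest p, at a log2 change of -1.22 ± 0.13 (edgeR adjusted p = 1.5e-05), with 158 to 185 CPM in NBC females and 59.4 to 92.7 CPM in sPIA females. Lamp5 (-0.62), Npy, neuropeptide Y (-0.73), and Cck, cholecystokinin (-0.35), also fell, whereas Cnr1, the cannabinoid receptor of cholecystokinin cells, rose by 0.25 on the log2 scale and Reln did not pass (adjusted p = 0.854). With the trend removed Sst, Lamp5 and Npy kept their calls, and Cck (-0.14, edgeR adjusted p = 0.169) and Cnr1 (0.14, adjusted p = 0.24) lost theirs. With the mean log2 CPM of the 32 markers as a covariate, the change of Slc32a1 in sPIA against NBC females was -0.47, no longer past the threshold (edgeR adjusted p = 0.0989), that of Slc12a5 -0.25 (adjusted p = 0.241), and the count of called genes overall went from 2472 to 90. Since the summed markers of every sPIA female lay below those of every NBC and mPIA female, this covariate and the group are hard to tell apart in females. The fit with it therefore cannot decide the part of these markers there. Among the males, sPIA libraries summed to 1790 to 1871 CPM and mPIA libraries to 1798 to 2016 CPM. In sPIA against mPIA males 0 markers rose, 3 fell (Sst, Lamp5 and Htr3a) and 29 did not pass, beside 4.92% of all genes called. With the trend removed Sst kept its call there, and Lamp5 and Htr3a lost theirs. The part of these markers in the results for Slc32a1 and Slc12a5 was not tested.

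**Figure D2:**
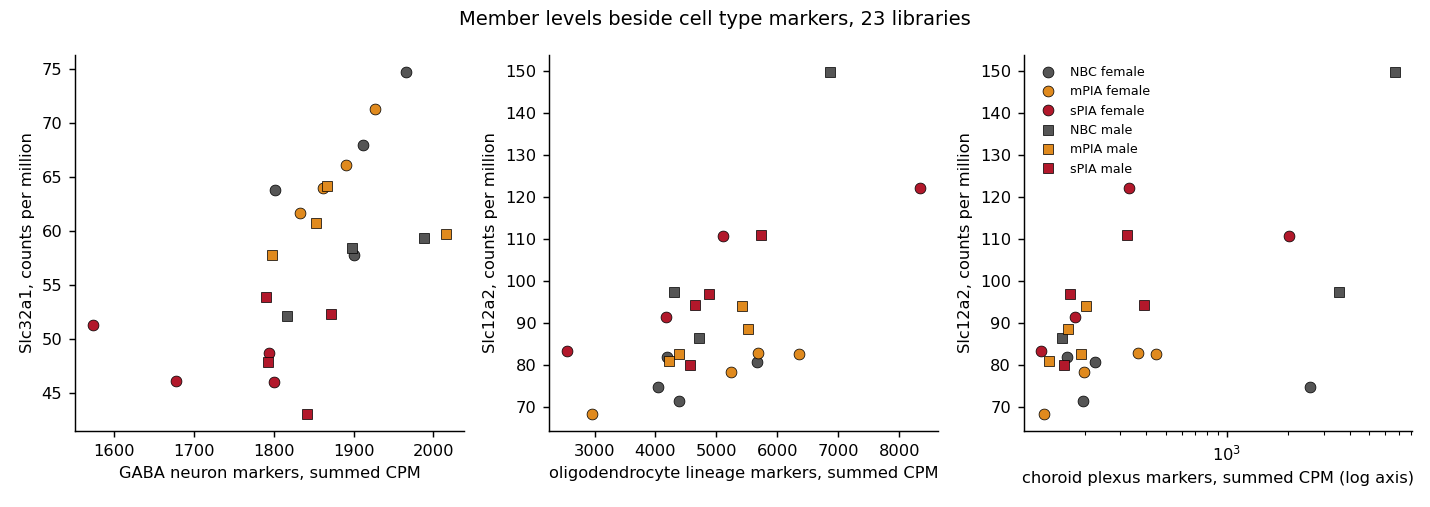
Levels of Slc32a1 and Slc12a2 in CPM (y axes) against the summed CPM of GABA neuron, oligodendrocyte lineage and choroid plexus markers (x axes, the last on a log scale) in 23 libraries; circles are females and squares males, coloured by level of anemia. Among females, the sPIA libraries lie lowest in GABA neuron markers, at 1573 to 1800 CPM, and NBC male 4 lies at the top of the choroid plexus axis, at 6672 CPM.

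The GABA transporter of astrocytes, GAT-3, is encoded by Slc6a11 (chr6:114131241-114249952, plus strand). NBC females had 219, 239.7, 202 and 216 CPM, mPIA females 223.5, 202, 205.5 and 229.8 CPM, and sPIA females 221, 197.7, 224 and 194 CPM. NBC males ranged from 183 to 232 CPM, mPIA males from 190.3 to 214.5 CPM and sPIA males from 185 to 219.7 CPM. All groups overlapped, and astrocyte markers summed to 2326 to 3041 CPM in sPIA females beside 2508 to 2647 CPM in NBC females.

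Abat, the mitochondrial GABA transaminase (chr16:8513429-8621568, plus strand), varied least of the members, 1.23-fold over all libraries. NBC females spanned 329 to 371 CPM, mPIA females 335 to 348 CPM and sPIA females 307 to 338 CPM. NBC males spanned 303 to 359 CPM, mPIA males 302 to 365 CPM and sPIA males 317 to 333 CPM. Its log2 change in sPIA against NBC females was -0.09, with an interval from -0.21 to 0.03 (edgeR adjusted p = 0.352).

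Slc12a5, the chloride exporter KCC2 of neurons (chr2:164960802-164999731, plus strand), followed the pattern of Slc32a1 at a smaller size. NBC females had 482.5, 449.6, 437 and 439.6 CPM and mPIA females 459.6, 464, 437 and 445 CPM. The 4 sPIA females, at 381, 390.0, 386 and 372.5 CPM, lay below all of these. The log2 change was -0.24 ± 0.059 against NBC (15.4% lower, edgeR adjusted p = 0.00615) and -0.24 ± 0.059 against mPIA (adjusted p = 0.00593). Markers of excitatory hippocampal neurons, which also carry KCC2, summed to 7307 to 8154 CPM for NBC and 7896 to 8667 CPM for sPIA females.

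Males showed a different order for Slc12a5, because NBC males were themselves low. They had 428, 365 and 387 CPM, against 459, 452, 437 and 458 CPM in mPIA and 362, 348, 404 and 418 CPM in sPIA. Severe anemia was below moderate in every library (log2 change -0.24 ± 0.059, edgeR adjusted p = 0.0223; -0.23 with adjusted p = 0.0815 on these libraries alone; lost also without mPIA male 1 or 4 or sPIA male 1 or 2) and overlapped NBC (-0.04, adjusted p = 0.85, interval -0.16 to 0.09). All mPIA males were above all NBC males by 0.20 on the log2 scale, which did not pass (adjusted p = 0.119). Without NBC male 2, the highest control, that change was 0.25 and passed (edgeR adjusted p = 0.0261). The controls left in that fit, NBC males 3 and 4, were both rich in choroid plexus markers (3535 and 6672 CPM), unlike NBC male 2 (154.5 CPM). The sex difference of the sPIA effect, -0.20, did not pass (adjusted p = 0.24).

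Base composition moved with these results. The longest annotated transcript of Slc32a1 is 61.9% G and C, above 98.1% of genes tested, and that of Slc12a5 58.3%, above 91.3%. Across 14882 genes, the Spearman correlation of a gene's deviation from its mean with its GC content was taken in each library. It lay between 0.18 and 0.55 among NBC females, 0.15 and 0.47 among mPIA females and -0.44 and 0.03 among sPIA females. Among males it lay between -0.26 and 0.02 in NBC, -0.10 and 0.30 in mPIA and -0.40 and -0.08 in sPIA. With the trend on GC content and length removed from each library, the change of Slc32a1 in sPIA females was -0.22 against NBC (edgeR adjusted p = 0.0438) and -0.23 against mPIA (adjusted p = 0.0306), both past the threshold. That of Slc12a5 became -0.12 (adjusted p = 0.128) and -0.13 (adjusted p = 0.0964), and in sPIA against mPIA males both genes lost their calls, at -0.10 (adjusted p = 0.479) for Slc32a1 and -0.09 (adjusted p = 0.389) for Slc12a5. The part of GC content in these differences was not tested otherwise.

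**Figure D3:**
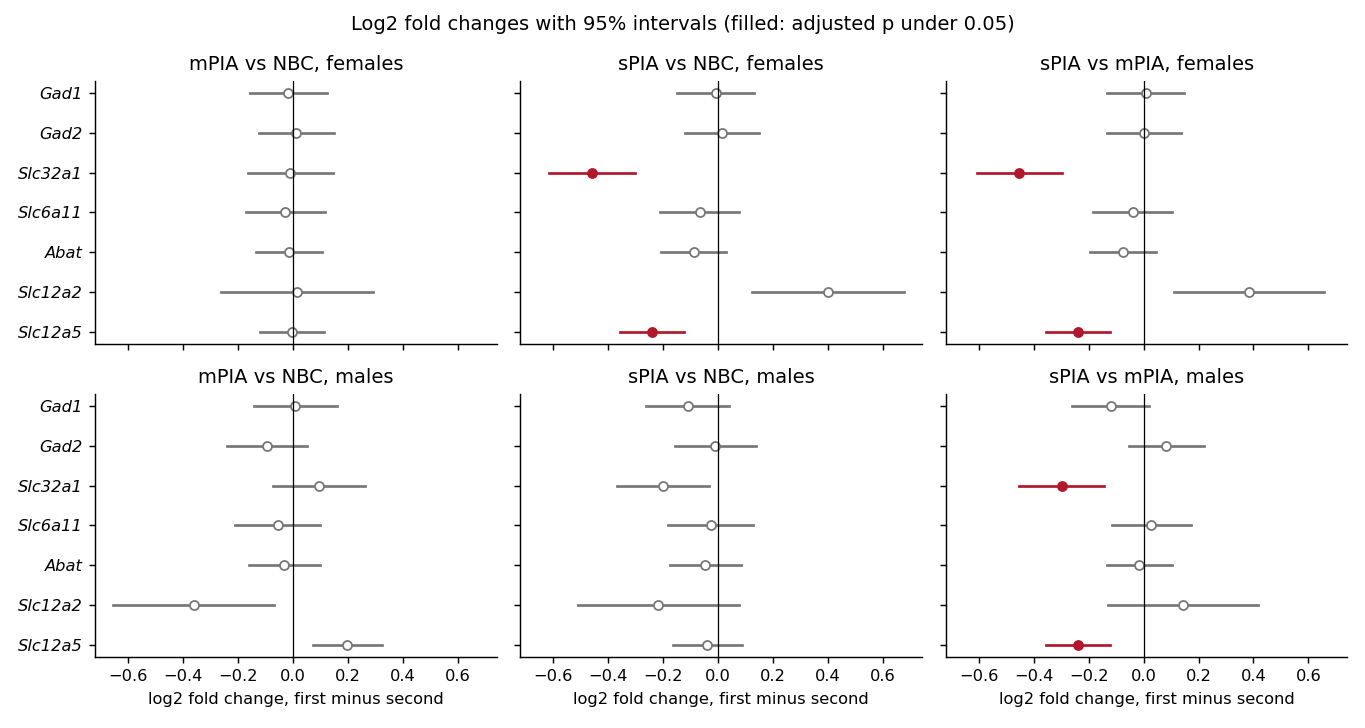
Log2 fold change (x axis) of the 7 genes (y axis) in the 6 comparisons of anemia levels within a sex, with bars of the 95% interval; filled points passed the adjusted p of 0.05. Filled points are Slc32a1 and Slc12a5 in sPIA against NBC females, sPIA against mPIA females and sPIA against mPIA males.

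Slc12a2, the chloride importer NKCC1 (chr18:57878678-57946821, plus strand), went the other way in severely anemic females without passing the test. NBC females had 71.4, 74.8, 80.6 and 82 CPM, mPIA females 82.9, 82.6, 78.3 and 68.3 CPM and sPIA females 122, 110.8, 83.2 and 91.3 CPM. Every sPIA female was above every NBC and mPIA female, a log2 difference of 0.40 ± 0.14 against NBC (edgeR adjusted p = 0.0568) and 0.38 ± 0.14 against mPIA (adjusted p = 0.0659). DESeq2 passed both (adjusted p = 0.0145 and 0.0201), as did edgeR on the compared groups alone (adjusted p = 0.0186 and 0.035). Without sPIA female 3, the lowest of its group, the values were 0.49 and 0.48 and both passed (edgeR adjusted p = 0.0326 and 0.0361). With the GC and length trend removed they were 0.26 (adjusted p = 0.323) and 0.24 (adjusted p = 0.35).

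Male libraries of Slc12a2 spread more widely, at 86.35, 97.3 and 149.9 CPM in NBC, 88.5, 82.6, 94.1 and 81 CPM in mPIA and 94.3, 111, 96.9 and 80 CPM in sPIA. The NBC males differed among themselves by more than the mean difference between any 2 male groups, with NBC male 4 above every other library. The log2 change was -0.36 ± 0.15 in mPIA against NBC males (edgeR adjusted p = 0.234) and -0.22 ± 0.15 in sPIA against NBC males (adjusted p = 0.603). The sPIA effect differed between the sexes by 0.62 on the log2 scale, which did not pass (adjusted p = 0.141) and passed with DESeq2 (0.63, adjusted p = 0.0411).

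Slc12a2 is expressed by the choroid plexus and by oligodendrocyte lineage cells as well as by neurons, and some libraries high or low in it were high or low in markers of these cells, while others were not. NBC male 4, the highest library, had the highest summed choroid plexus markers (6672 CPM) and oligodendrocyte lineage markers of 6866 CPM. Among females, sPIA female 1 was highest in both Slc12a2 and oligodendrocyte markers (8346 CPM), and mPIA female 4 was lowest in Slc12a2 with 2966 CPM of those markers. In contrast, NBC female 2 had the most choroid plexus markers among females (2566 CPM) at 74.8 CPM of Slc12a2, and mPIA female 2 had 6360 CPM of oligodendrocyte markers at 82.6 CPM. The oligodendrocyte list as a whole had 0 of 17 genes called in sPIA against NBC females, beside 16% of all genes called, with a median log2 change of -0.04. The group ranges overlapped (4048 to 5668 CPM in NBC females and 2550 to 8346 CPM in sPIA females). With the mean log2 CPM of these markers as a covariate, the change of Slc12a2 in sPIA females was 0.42 against NBC (edgeR adjusted p = 0.00316) and 0.45 against mPIA (adjusted p = 0.0019). With that of the GABA neuron markers it was 0.03 (edgeR adjusted p = 0.968) and 0.00. The sums of those markers did not overlap between sPIA females (1573 to 1800 CPM) and NBC (1801 to 1966 CPM) or mPIA females (1833 to 1927 CPM). That covariate and the group are therefore hard to tell apart, and the fit cannot decide the part of GABA neurons. Without the 4 libraries rich in choroid plexus markers it was 0.34 in both, with adjusted p = 0.0722 against NBC and 0.0465 against mPIA. The part of these cells in the level of Slc12a2 was not tested otherwise.

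The balance of exporter to importer was read within each library as the ratio of Slc12a5 to Slc12a2 per kb, a description with no test. Among females it was 8.64 ± 0.95 for NBC, 8.53 ± 0.683 for mPIA and 5.63 ± 0.969 for sPIA (SD, n = 4 each). The sPIA females ranged from 4.58 to 6.8 and the NBC females from 7.87 to 9.91, so the groups did not overlap, and the mean log2 ratio was lower by 0.63 (log2 difference -0.63 ± 0.15, SE). With the GC and length trend removed, an alternative chosen after seeing the data, the difference was -0.36 ± 0.18 and the groups overlapped. The ratio in males was 5.52 ± 1.74 in NBC (n = 3), 7.68 ± 0.649 in mPIA and 6 ± 1.27 in sPIA, and these 3 groups overlapped. The lowest library of all was NBC male 4, at 3.79. Without anemia, all NBC females were above all NBC males in this ratio (log2 difference 0.69 ± 0.28, SE), where code and sex cannot be told apart. These groups still did not overlap with the GC and length trend removed (0.44 ± 0.20).

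**Figure D4:**
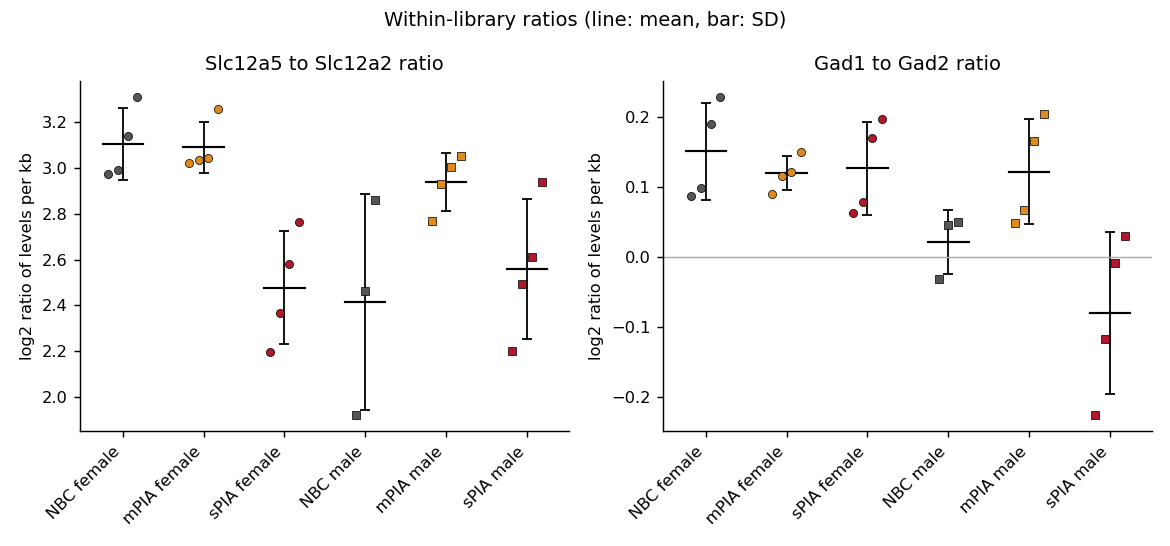
Log2 ratio of Slc12a5 to Slc12a2 (left) and of Gad1 to Gad2 (right), both per exonic kilobase (y axes), in every library of the 6 groups (x axes); lines are means and bars the SD. For Slc12a5 to Slc12a2, all sPIA females lie below all NBC and mPIA females before removal of the GC and length trend, whereas the Gad1 to Gad2 ratios lie close to 0.

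Between the sexes without anemia, 10.1% of genes and 2 of 7 members were called, and code and sex cannot be told apart here. Slc12a2 was lower in NBC females than in NBC males (log2 difference -0.53 ± 0.15, edgeR adjusted p = 0.0309) and Slc12a5 higher (0.20 ± 0.064, adjusted p = 0.043), with no overlap of libraries in either. Both calls were lost without NBC male 4, NBC female 1 or NBC female 2. Without NBC male 4 the differences were -0.26 (adjusted p = 0.267) and 0.18 (adjusted p = 0.163), and without the 4 libraries rich in choroid plexus markers, which left 1 NBC male assumed to vary like the other groups, -0.14 (adjusted p = 0.795) and 0.09 (adjusted p = 0.768).

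Enzymes and transporters that feed GABA synthesis formed a list of 23 further genes, all tested. In sPIA against NBC females 4 rose, 3 fell and 16 did not pass, beside 16% of all genes called, with a median log2 change of -0.02. The rises included Slc1a3 (0.30) and Slc1a2 (0.23), the glutamate transporters of astrocytes, and Slc38a1 (0.26), which carries glutamine into neurons. The falls included Got2 (-0.28), the mitochondrial aspartate aminotransferase, and Hap1 (-0.40), a trafficking protein. With the GC and length trend removed, Got2 kept its call, and Slc1a3, Slc1a2, Slc38a1 and Hap1 lost theirs. In the other 3 comparisons with NBC 0 of the 23 passed.

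Of the list of GABA-B receptors and the inhibitory postsynapse, 13 of 14 genes were tested. In sPIA against NBC females 2 rose, 1 fell and 10 did not pass, beside 16% of all genes called, with a median log2 change of 0.06. Kctd12, an auxiliary subunit of GABA-B receptors, rose by 0.48, while Nlgn2, the neuroligin of inhibitory synapses, fell by 0.18 on the log2 scale. With the GC and length trend removed, Kctd12 kept its call (0.38, edgeR adjusted p = 0.00936) and Nlgn2 lost it. The receptor subunits Gabbr1 (-0.05, adjusted p = 0.541) and Gabbr2 (-0.07, adjusted p = 0.495) and the scaffold Gphn (0.09, adjusted p = 0.347), named here after their values were seen, did not pass. In each of the other comparisons with NBC 0 of the 13 passed.

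Chloride and bicarbonate transport, with the kinases that set the activity of the cotransporters, had 32 of 35 genes tested. In sPIA against NBC females 3 rose, 5 fell and 24 did not pass, beside 16% of all genes called, with a median log2 change of 0.03. Clcn2, a chloride channel, fell by 0.52 and Slc4a3, an anion exchanger, by 0.33, and Slc4a4, the sodium bicarbonate cotransporter of astrocytes, rose by 0.38 on the log2 scale. With the GC and length trend removed, Clcn2 (-0.36, edgeR adjusted p = 0.00204), Slc4a3 (-0.26, adjusted p = 0.00779) and Slc4a4 (0.26, adjusted p = 0.0191) kept their calls. Moderate anemia in males gave 1 rise and 1 fall among the 32. Car7, a carbonic anhydrase of hippocampal neurons, rose by 0.74 (adjusted p = 0.0155) and Cab39l, an adaptor of the kinases that phosphorylate the cotransporters, fell by 1.12 (adjusted p = 0.0435), and both kept their calls with the trend removed. In this comparison 0 genes of all tested were called with only the groups compared, with the choroid plexus covariate or without NBC male 4, so both calls were lost there. Car7 was also called lower in sPIA than in mPIA males, by 0.64 (adjusted p = 0.00481), as were Clcn2 and Wnk2. With the trend removed Car7 kept that call, and Clcn2 (-0.20, edgeR adjusted p = 0.145) and Wnk2 (-0.06, adjusted p = 0.614) lost theirs. Of the list, 0 of the 32 passed in sPIA against NBC males or mPIA against NBC females. With the trend removed, Clcn6 gained a call as higher in sPIA against NBC males (0.45, edgeR adjusted p = 0.0349). It also did so in sPIA against mPIA males (0.34, adjusted p = 0.0402).

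The genes most like each member were taken by the Pearson correlation of log2 CPM over the 23 libraries, which share depth, group and base composition, so that these values are descriptions without a test. For Slc32a1 they were Clptm1 (r = 0.94), Stub1 (0.93) and Zfp771 (0.93), and for Slc12a5 they were Pld3 (0.93), Rusc2 (0.93) and Atg9a (0.92). All 6 have a GC content above the median of 49.8%, from 54.5% in Clptm1 to 68.7% in Zfp771. After removal of the GC and length trend, 1 of the 3 stayed for Slc32a1 (Clptm1, 0.83) and 0 of the 3 for Slc12a5. Gad1 was most like Tspyl4 (0.79), Gad2 most like B3galt2 (0.85), Abat most like Dnajc27 (0.82), Slc6a11 most like Dmrt3 (0.77) and Slc12a2 most like Zic2 (0.89). Zic2 has a GC content of 59.9%, while the next genes most like Slc12a2, Fam107b (43.8%) and Cd164 (41.6%), lie below the median. After removal of the trend, 1 of the 3 stayed for Slc12a2 (Zic2, 0.84), 2 for Gad1, 1 each for Abat and Slc6a11 and 0 for Gad2.

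Between members, Slc32a1 and Slc12a5 went together most closely (r = 0.84 over 23 libraries, a description), and each ran against Slc12a2 (r = -0.65 and -0.67). Gad1 and Gad2 had r = 0.52, and Gad1 and Abat 0.53. Neither decarboxylase followed the vesicular transporter, with r = 0.25 for Gad1 and -0.26 for Gad2. These levels keep the GC and length trend. GC content is high in Slc32a1 (61.9%) and Slc12a5 (58.3%) and low in Slc12a2 (44.2%) and Gad2 (44.1%), against a median of 49.8%. Correlations between members with the trend removed are not given here, and the part of GC content in their signs was not tested.

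**Figure D5:**
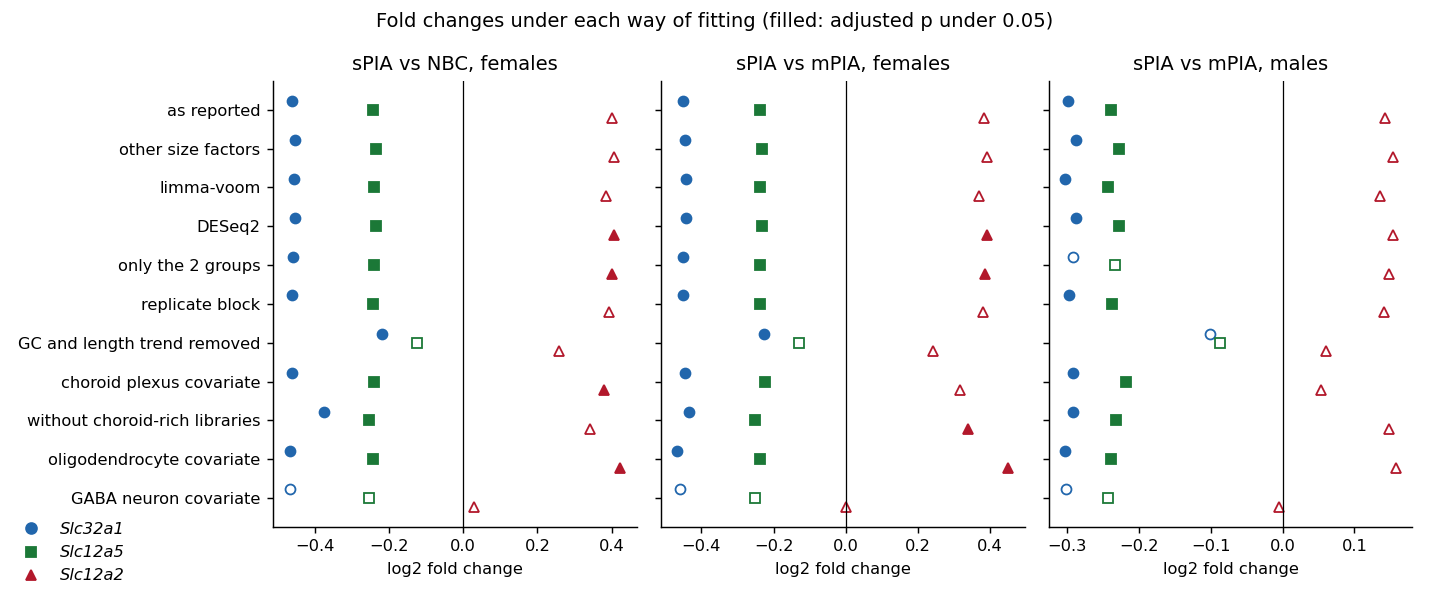
Log2 fold change (x axes) of Slc32a1, Slc12a5 and Slc12a2 in 3 comparisons under each way of fitting (y axis); filled points passed the adjusted p of 0.05. Slc32a1 in sPIA against NBC females is filled in all settings shown except that with the GABA neuron covariate, and the points move closest to 0 for Slc32a1 and Slc12a5 where the GC and length trend is removed.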

How the data were processed

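Raw read counts per gene, whole numbers in a single deposited table, are the authors' values with no scaling. RNA was polyadenylated and libraries followed TruSeq protocols, per the labels. The submitters' processing notes name FastQC, TopHat2 2.0.13, Subread, edgeR and mouse build mm10; the annotation, strand setting and handling of multiply mapped reads were not given in the sources used here. All columns matched samples by name (0 left over). Of 24421 rows, 95.7% carry a GENCODE M21 symbol, which gave positions, exonic length (union of exons) and GC content (longest transcript of the gene).

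Counts were tested with edgeR's quasi-likelihood test (edgeR 4.0.16, R 4.3.3) in a single robust fit of 23 libraries and 6 group means, with TMM scaling, filterByExpr (minimum count 10, total 15) and Benjamini-Hochberg adjustment over 15475 genes at 0.05. Fold changes are log2 with SE, and intervals are 95%. Log2 CPM used a prior count of 2. The trend on GC content and length was a loess fit per library (span 0.3). Alternatives were DESeq2 1.42.0, limma 3.58.1 (voom), other size factors, no filter, only the groups compared, a replicate block, the library code as a block, marker scores as covariates and leaving out each library. The code was tested on simulated data. Figures used matplotlib 3.10.9.

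The series design gives 4 males and 4 females per group, so libraries were taken as separate animals, and replicates differed by more than sampling noise. The members, gene lists and tests were chosen with earlier results of these data known. Genes named are the members, the 3 most correlated with each, and from each list the called genes by smallest p (up to 4 per comparison with NBC) with the 2 most abundant markers of a cell type; not all are reported. Some genes of the lists enter the counts but are not reported here by name. Slc17a7, Hap1, Slc1a2, Htr3a, Clcn6, and Car7, Clcn2 and Wnk2 in sPIA against mPIA males were named outside this rule, after their values were seen.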

Additional observations from a re-analysis of the deposited data

Results flagged for a closer look

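Among 45 sets of 4 libraries of a group (7 genes and 2 ratios, in the groups of that size), 1 held a library far from the other 3, where chance alone flags about 1 in 20. The log2 ratio of Slc12a5 to Slc12a2 was 3.25 in mPIA female 4, while the other mPIA females lay between 3.02 and 3.04. That library had the lowest Slc12a2 of all, 68.3 CPM, and 2966 CPM of oligodendrocyte lineage markers, the lowest among NBC and mPIA females. The part of these markers in the ratio was not tested.

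For the Gad1 to Gad2 ratio, all 4 mPIA females lay below the mean of NBC females and all 4 mPIA males above the mean of NBC males, although mPIA and NBC libraries overlapped in both sexes. The mean log2 differences were -0.03 ± 0.037 (SE) in females, within its error, and 0.10 ± 0.046 in males. The difference between the sexes was -0.13, which was not tested.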

How the results depend on the processing

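Over all alternatives, 1148 of 1281 values of single members kept the sign of the reported value, and the 133 others, all outside the threshold in both fits, include 125 where the reported log2 change was under 0.1 in size. Calls were lost in 43 cases and gained in 16. Removing the GC and length trend left 1 call among the members in sPIA against NBC females and 1 in sPIA against mPIA females, 0 in sPIA against mPIA males and 0 in NBC females against NBC males. It moved the log2 ratio difference of Slc12a5 to Slc12a2 (added after seeing the data) to -0.36 in sPIA against NBC females and -0.36 in sPIA against mPIA females, from -0.63 and -0.61. Fitting only the groups compared left 0 in sPIA against mPIA males and 0 in NBC females against males. With the GABA neuron covariate, added after seeing the data, there were 0 calls in both female sPIA comparisons and in sPIA against mPIA males, and 1 in NBC females against males. In the female sPIA comparisons that covariate and the group are hard to tell apart. NBC females against males gave 0 with the choroid plexus covariate, 0 without the 4 choroid-rich libraries (added after seeing the data) and 1 with no low-count filter. The sex difference of the sPIA effect gave 1 with DESeq2 and 1 with the oligodendrocyte covariate (added after seeing the data). Leaving out each library in turn gave 0 to 2 calls in mPIA against NBC males (2 without NBC male 2), 2 to 3 in each female sPIA comparison (3 without sPIA female 3), 0 to 2 in sPIA against mPIA males (0 without mPIA males 1 or 4 or sPIA males 1 or 2, and 1 without mPIA male 2), 0 to 1 in the sex difference of the sPIA effect (1 without NBC male 2) and 0 to 2 in NBC females against males (0 without NBC male 4 or NBC females 1 or 2, 1 without NBC male 3 or NBC females 3 or 4). Over 55 pairs of same-numbered libraries of different groups the correlation of deviations had a median of 0.007, with 6 above 0.1, and the samples were not treated as paired. In NBC and mPIA females the replicate number follows the code stem. A median over all groups cannot tell whether these females are paired. The replicate block left 0 calls in NBC females against males (Slc12a2 -0.54, edgeR adjusted p = 0.0513, and Slc12a5 0.20, adjusted p = 0.0702) and changed no other count of members.

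Over all genes, the called number moved with the setting. Leaving out a library moved it from 2472 to between 1421 (without NBC female 1) and 2705 in sPIA against NBC females, from 2499 to between 1582 (without mPIA female 1) and 2769 in sPIA against mPIA females, from 762 to between 230 (without mPIA male 1) and 1340 (without sPIA male 4) in sPIA against mPIA males, from 101 to between 0 (without NBC male 4) and 1124 (without NBC male 2) in mPIA against NBC males, from 30 to between 4 and 249 (without the same 2) in sPIA against NBC males, from 147 to between 5 (without NBC female 1) and 327 (without NBC male 2) for the sex difference of the sPIA effect, from 0 to at most 69 (without NBC male 2) for that of the mPIA effect, and from 1570 to between 440 (without NBC male 4) and 2152 in NBC females against males. Other settings gave 90 to 2882, 133 to 3312, 252 to 1210, 0 to 381, 4 to 155, 5 to 452, 0 to 1 and 40 to 1988 in the same order, and 0 to 6 in mPIA against NBC females. Replicate libraries differed by more than counting noise across genes, and groups of 3 or 4 limit the precision.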
